A study of Homo sapiens with 8 samples.

Results

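The sites described here are the p53 peaks that lay in a 386 kb window around MYC and PVT1 on chromosome 8, from 128807000 to 129193000 in the build hg18. A peak was a member when it had at least 1 bp inside the window in any of the 4 deposited peak lists, and 27 of 24535 peaks did. The lists come from chromatin immunoprecipitation and sequencing (ChIP-seq) of p53 with the antibody DO-1 in U2OS, a human osteosarcoma cell line with wild-type p53. Cells were left untreated or were treated with DMSO (0.1%), doxorubicin (0.6 µg/ml) or Nutlin-3 (at 10 µM). A time of 24 h is given for each condition, and each had 1 ChIP library. Per the labels, untreated cells are the control of doxorubicin, and DMSO, the solvent, is the control of Nutlin-3. Doxorubicin traps topoisomerase II on DNA and causes breaks. Nutlin-3 blocks the binding of the ubiquitin ligase MDM2 to p53 and so stabilises p53 without breaking DNA.

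MYC encodes a transcription factor that drives cell growth and division, and its level is known to fall in many cells when p53 is active. PVT1 is a long non-coding RNA gene on the same strand, downstream of MYC, and the pair is often gained together in tumours. PVT1 and the microRNA gene MIR1204 near its start have been described as p53 targets, and in mouse a p53-induced PVT1 isoform was described to lower Myc. In RefSeq's gene order on GRCh38, MIR1204, MIR1205, MIR1206 and MIR1207 lie inside PVT1 and MIR1208 lies beyond its end. A peak list measures neither gene's expression.

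The gene bounds used were approximate: MYC from 128817500 to 128822900 (5.4 kb) and PVT1 from 128876000 to 129182700 (306.7 kb), with 53.1 kb between them. Distances below are from these bounds and are approximate in the same way. Exons, introns and untranslated regions were not assigned, since no hg18 annotation was used here. Peak positions are as deposited, and each file gave only a chromosome, a start and an end, so no height, enrichment or read depth stands behind a peak. The lists held 496 peaks without treatment, 2793 with DMSO, 3087 with doxorubicin and 18159 with Nutlin-3.

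p53 peaks were listed in PVT1 in all 4 conditions and in MYC itself in none. Nutlin-3 gave 19 peaks in the window (exact 95% Poisson interval 11.4 to 29.7), no treatment gave 4 (1.09 to 10.2), and DMSO and doxorubicin gave 2 each (0.242 to 7.22). These intervals cover counting error only. Of the 27 peaks, 25 lay within PVT1: 17 of the 19 with Nutlin-3 and every peak of the other lists. The peaks covered 2760 bp with Nutlin-3, 320 bp without treatment and 80 bp each with DMSO and doxorubicin. With 1 library per condition no difference between conditions was tested, and lists of such different lengths can differ in depth as well as in binding.

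**Figure D1:**
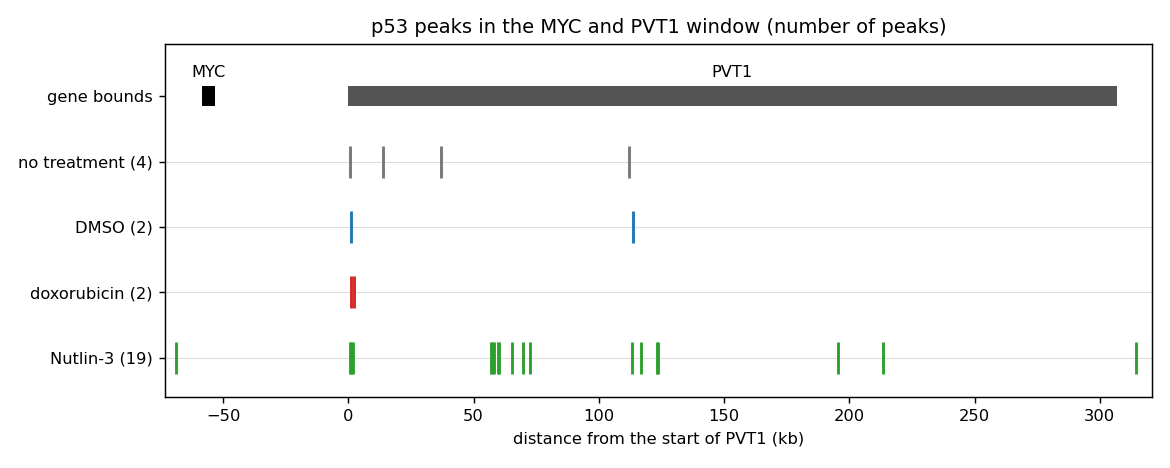
Positions of the 27 peaks in the window, as distance from the start of PVT1 in kb, with 1 row of ticks per list and the gene bounds on top. The 2 doxorubicin peaks sit together at the start of PVT1, while the Nutlin-3 peaks form groups along the gene and none of the 4 lists has a tick in MYC.

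The start of PVT1 was the one place in the window where all 4 lists had a peak. Within 5 kb of that start, Nutlin-3 had 3 peaks, doxorubicin 2, DMSO 1 and no treatment 1, and all 7 lay after the start, in 1.88 kb from 128876251 to 128878131. Together they covered 840 bp, with bases in common counted once. Among 307408 windows of 10 kb tiled over the genome, 13 (0.00423%) held a peak of each list, and 1 of the 13 was the one at the start of PVT1. This narrower place was chosen with the positions known, so that share is a description. The untreated list has 496 peaks in all, so few windows of 10 kb could hold a peak of each list. The small share reflects that in part.

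The first peak after the start of PVT1 was the widest of the window. It was a Nutlin-3 peak from 128876251 to 128876791, 540 bp wide and 0.251 kb inside PVT1. Of the 18159 Nutlin-3 peaks, 25 (0.138%) were as wide or wider. The peak nearest to it was the untreated peak from 128876811 to 128876891, 80 bp wide, which began 20 bp after the Nutlin-3 peak ended and did not overlap it. No DMSO or doxorubicin peak overlapped this wide peak: the nearest were 360 bp and 380 bp away.

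About 1.2 kb inside PVT1, 3 conditions had a peak of 40 bp at nearly the same place. The DMSO peak ran from 128877151 to 128877191, the doxorubicin peak from 128877171 to 128877211 and the Nutlin-3 peak from 128877191 to 128877231. Peaks in these files sit on a grid of 20 bp, and each of these was shifted by 1 grid step from the one before. The doxorubicin peak thus had 20 bp in common with each of the other two, while the DMSO and Nutlin-3 peaks adjoined. The files do not say whether an end belongs to its peak. With ends outside, as taken here, these adjoining peaks had 0 bp in common, and with ends inside they would share 1 bp. Untreated cells had no peak there: their nearest peak ended 260 bp before the DMSO peak began.

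Further into the gene, a Nutlin-3 peak of 100 bp ran from 128877731 to 128877831 and a doxorubicin peak of 40 bp from 128878091 to 128878131. They were 260 bp apart. The 2 doxorubicin peaks of the window thus lay 1.17 kb and 2.09 kb inside PVT1, and no doxorubicin peak was listed in the remaining 305 kb of the gene.

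**Figure D2:**
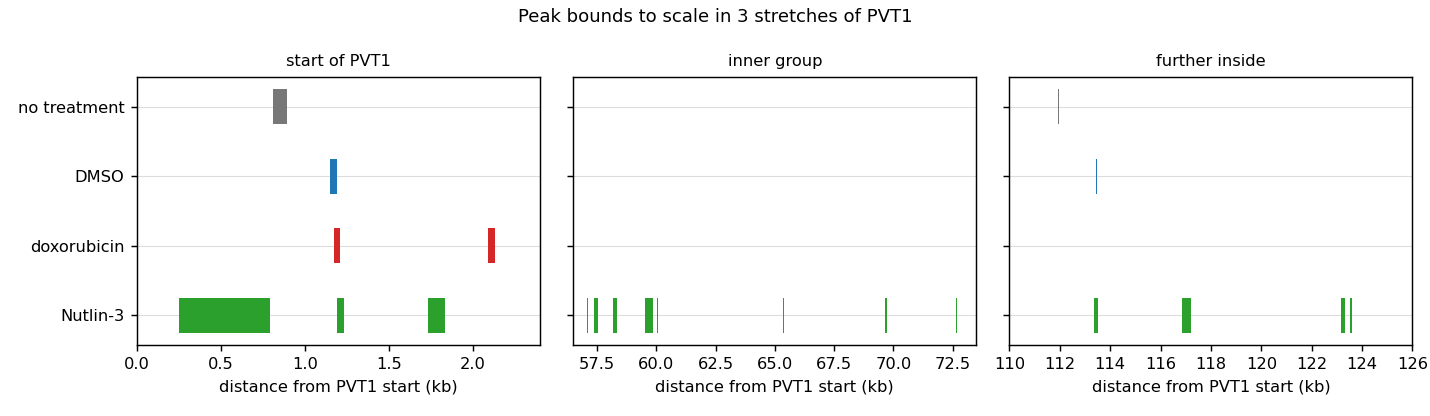
Bounds of the peaks, drawn to scale, in 3 stretches of PVT1, as distance from its start in kb, with 1 row per list. At the start the DMSO, doxorubicin and Nutlin-3 peaks of 40 bp step past each other by 20 bp, the inner group at 57.1 to 72.7 kb holds Nutlin-3 peaks alone, and near 113 kb a DMSO peak of 40 bp lies inside a Nutlin-3 peak of 140 bp.

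The largest group of peaks inside PVT1 was in the Nutlin-3 list. From 128933071 to 128948671, 57.1 to 72.7 kb after the start of the gene, 8 Nutlin-3 peaks lay in 15.6 kb, and the other lists had 0 peaks there. Their widths ran from 40 to 360 bp, with 980 bp covered in all. The widest, of 360 bp, ran from 128935511 to 128935871, and 1.12% of the Nutlin-3 list was as wide or wider. The nearest peak of another list was an untreated peak 20020 bp away, and the nearest DMSO and doxorubicin peaks were 40780 bp and 54940 bp away. Peaks without a counterpart in another list make up most of the Nutlin-3 list, of which 15.6% overlapped a peak of any other list and 25.2% had one within 1000 bp. Counting runs of at least 5 peaks with gaps of at most 20 kb, the Nutlin-3 list had 290 runs, of which 63 held 8 peaks or more. The 290 runs held 1905 Nutlin-3 peaks, 10.5% of the list.

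Further inside PVT1 a site was common to DMSO and Nutlin-3. The Nutlin-3 peak ran from 128989371 to 128989511 (140 bp), and the DMSO peak from 128989451 to 128989491 (40 bp) lay inside it, 113 kb after the start of the gene. An untreated peak of 40 bp, from 128987931 to 128987971, ended 1400 bp before the Nutlin-3 peak. The nearest doxorubicin peak to this site was 111240 bp away. A further 3 Nutlin-3 peaks followed, of 340 bp from 128992851 to 128993191, of 180 bp from 128999151 to 128999331 and of 60 bp from 128999531 to 128999591.

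None of the 4 untreated peaks of the window overlapped a peak of any other list, against 37.9% of the untreated list, and 1 of 4 had one within 1000 bp, against 57.1%. These 4 peaks are too few to be set apart from the list. Beside the peaks described above, one ran from 128889931 to 128890011 (80 bp), with the nearest peak of another list 11800 bp away. The other ran from 128912931 to 128913051 (120 bp), with its nearest neighbour in another list 20020 bp away, in the Nutlin-3 group described above. All 4 untreated peaks lay in the first 112 kb of PVT1.

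The peaks in PVT1 lay mostly before its midpoint. Nutlin-3 had 15 peaks before the midpoint of the gene and 2 after it, each 60 bp wide, from 129071631 to 129071691 and from 129089331 to 129089391. At the Nutlin-3 density of the flanking windows 2.62 peaks would fall in the 153 kb after the midpoint, so the count there was near that of the surroundings. The other 3 lists had 0 peaks after the midpoint. The last 93.3 kb of PVT1 held no peak of any list. Beyond its end, 7.79 kb downstream, Nutlin-3 had a peak of 220 bp from 129190491 to 129190711.

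No list had a peak within the bounds of MYC or between MYC and PVT1. At the mean Nutlin-3 density of the window, 0.266 peaks would fall in a stretch as short as MYC, so a count of 0 there does not set the gene apart. For the 53.1 kb between the genes the same figure was 2.61, and a count of 0 allows up to 3.69 (upper limit of the Poisson interval). The nearest peak upstream of MYC was a Nutlin-3 peak of 40 bp from 128807231 to 128807271, which ended 10.2 kb before the gene. The nearest upstream peak was 74.6 kb away with doxorubicin, 1156 kb away with DMSO and 3799.8 kb away without treatment. Downstream, the nearest peaks were those at the start of PVT1, from 53.4 kb (Nutlin-3) to 54.3 kb (doxorubicin) past the end of MYC.

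The window was denser in peaks than its surroundings in the Nutlin-3 and untreated lists. With 5 windows of the same length on each side, Nutlin-3 had 49.2 peaks per Mb in the window and 17.1 per Mb in the flanks. The ratio was 2.88 (exact 95% interval from the counts 1.63 to 4.86). This interval treats peaks as independent, although 8 of the 19 lay in 1 run of 15.6 kb. The 10 flanking counts ran from 2 to 12 with a median of 5, so none reached 19. The adjoining windows held 3 peaks on the MYC side and 12 on the far side of PVT1. Without treatment, the 4 peaks stood against 3 in all 10 flanking windows, of which 8 had 0, and the ratio was 13.3 (2.26 to 91.0). All 3 flanking untreated peaks were on the far side of PVT1. With 1 window on each side the untreated ratio was 8 (0.792 to 394), an interval that includes 1.

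For DMSO and doxorubicin the counts were too small to set the window apart from its flanks. DMSO had 2 peaks in the 10 flanking windows, with a ratio of 10.0 (0.725 to 138). With 10 windows on each side DMSO had 13 flanking peaks, up to 7 in a window, and the ratio was 3.08 (0.337 to 13.6). In the 10 flanking windows doxorubicin had 4, with a ratio of 5.00 (0.452 to 34.9). For doxorubicin 1 flanking window also held 2 peaks. These intervals, like those of the Nutlin-3 and untreated ratios, treat peaks as independent, although peaks of a list lie in groups.

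**Figure D3:**
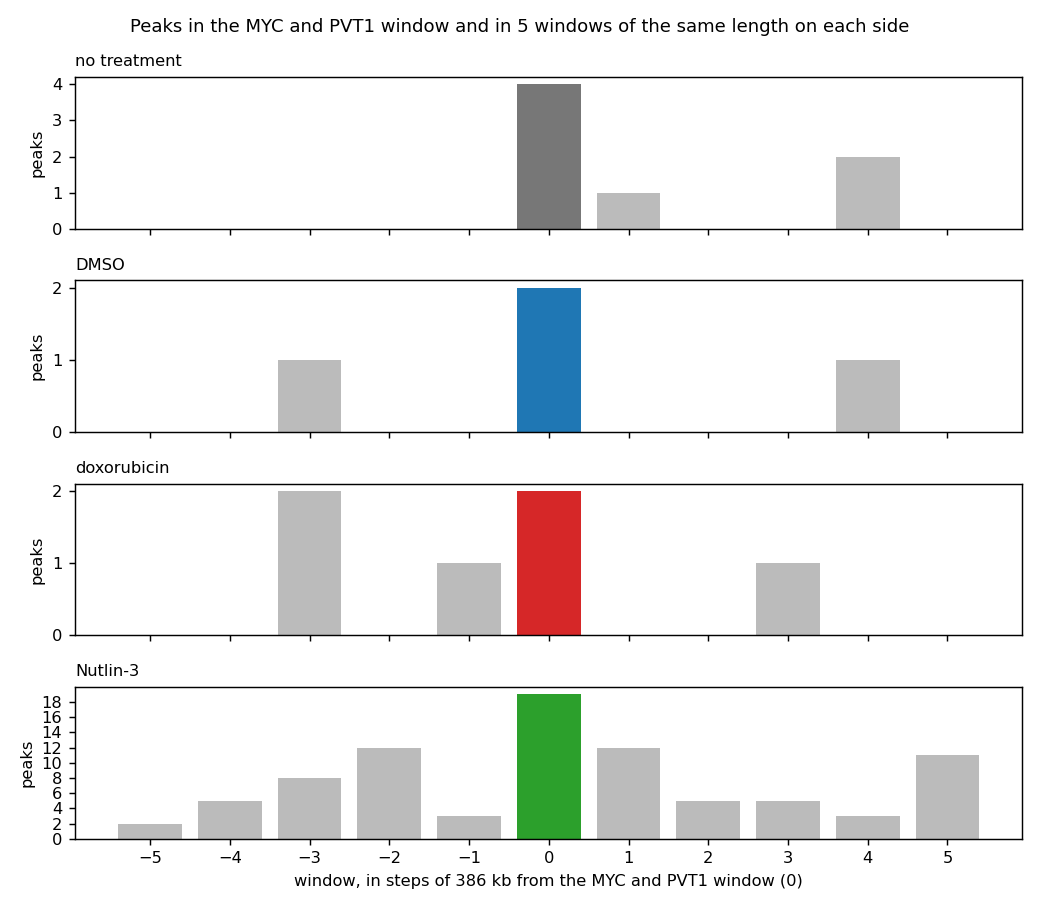
Number of peaks per window of 386 kb, for the MYC and PVT1 window (coloured, 0) and 5 windows of the same length on each side (grey), with 1 panel per list and each vertical axis starting at 0. The Nutlin-3 window, with 19 peaks, stands above flanks of 2 to 12, and the untreated flanks hold peaks only to the right.

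Against windows of the same length tiled over all chromosomes, the window was in the upper tail of the same 2 lists. Of 7977 tiled windows, 17 (0.213%) had at least 19 Nutlin-3 peaks and 23 (0.288%) had at least 4 untreated peaks. On chromosome 8 alone the shares were higher, with 3 of 379 tiled windows (0.792%) for Nutlin-3 and 5 of 379 (1.32%) for no treatment. At least 2 peaks were found in 7.22% of the tiled windows with DMSO and in 6.61% with doxorubicin. A peak of each of the 4 lists was found in 82 tiled windows (1.03%). In 1 tiled window (0.0125%), on chromosome 8 from 29336001 to 29722000, every list had at least as many peaks as here, with 9 untreated, 5 DMSO, 2 doxorubicin and 21 Nutlin-3 peaks. The tiling divides the PVT1 gene between tiled windows, so the MYC and PVT1 window is not itself one of them.

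The untreated list had a larger share of its peaks on chromosome 8 than the other lists. The window held 0.806% of the untreated list (Clopper-Pearson interval 0.220 to 2.05), against 0.105% of the Nutlin-3 list (0.0630 to 0.163), 0.0716% of the DMSO list (0.00867 to 0.258) and 0.0648% of the doxorubicin list (0.00785 to 0.234). Chromosome 8 carried 71 of the 496 untreated peaks (14.3%, 11.4 to 17.7), against 6.10% of the Nutlin-3, 5.41% of the DMSO and 4.24% of the doxorubicin list. Within chromosome 8, the window held 5.63% of the untreated peaks and from 1.32% to 1.71% of those of the other lists. Untreated peaks were not evenly spread on chromosome 8, where a tiled window of 386 kb held up to 12 of them. The intervals treat peaks as independent. The part of the larger share on chromosome 8 in the untreated count of the window was not tested.

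Sharing between lists, here by at least 1 bp, was counted beside the share over each whole list. A peak of any other list overlapped 2 of 19 Nutlin-3 peaks (list 15.6%) and 2 of 2 DMSO peaks (list 74.4%). The same held for 1 of 2 doxorubicin peaks (list 72.6%) and 0 of 4 untreated peaks (list 37.9%). For Nutlin-3, 1 of 19 peaks overlapped a DMSO peak (5.26%, 0.133 to 26.0), against 10.9% of its whole list, and 1 of 19 overlapped a doxorubicin peak, against 10.8%. The wide interval of each of these shares included the share of the list. No Nutlin-3 peak of the window overlapped an untreated peak, against 0.187% of the list. From the side of the short lists, 1 of 2 DMSO peaks overlapped Nutlin-3 (list 70.4%) and 1 of 2 overlapped doxorubicin (list 45.0%). With adjoining peaks counted, 2 of 2 DMSO peaks would be shared with Nutlin-3 and 2 of 19 Nutlin-3 peaks with DMSO. By at least 1 bp, 1 of 2 doxorubicin peaks overlapped Nutlin-3 (list 63.5%) and 1 of 2 overlapped DMSO (list 40.6%). None of the 2 DMSO and 2 doxorubicin peaks overlapped an untreated peak (lists 0.215% and 5.54%). None of the 4 untreated peaks overlapped a DMSO peak (list 1.21%), a Nutlin-3 peak (list 6.45%) or a doxorubicin peak (list 33.5%). With 4 peaks a share of up to 60.2% (upper Clopper-Pearson limit) is still possible for each of these.

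Peaks within 1000 bp of a peak of another list were also counted, and this count includes every overlap. Within 1000 bp, 3 of 19 Nutlin-3 peaks (15.8%) had an untreated peak, against 0.771% of the whole Nutlin-3 list, and all 3 had the same untreated peak at the start of PVT1 as their neighbour, so they are 1 place and not 3 separate ones. Within the same distance 4 of 19 had a DMSO peak (list 18.9%) and 3 of 19 a doxorubicin peak (list 19.1%). Overlapping or adjoining peaks of the 4 lists merged into 24 regions, of which 2 (8.33%) were held by at least 2 lists, against 16.0% of all regions. Those 2 were the region from 128877151 to 128877231 with DMSO, doxorubicin and Nutlin-3, and the one from 128989371 to 128989511 with DMSO and Nutlin-3. When peaks up to 500 bp apart were joined, the start of PVT1 became 1 region of 1880 bp held by all 4 lists. At that distance 2 of 17 regions (11.8%) were held by at least 2 lists, against 19.0% of all regions. How many regions of the genome were held by all 4 lists was not counted.

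The Nutlin-3 peaks of the window included more wide ones than the list at large. Their widths ran from 40 to 540 bp, with a median of 100 bp and a mean of 145 bp, against 60 bp and 88.7 bp over the list. Of the 19, 3 (15.8%) were at least 300 bp wide, against 2.60% of the list, and these were the 540 bp peak at the start of PVT1, the 360 bp peak of the inner group and the 340 bp peak after the site shared with DMSO. Another 5 (26.3%) had the smallest width, 40 bp, against 34.6% of the list. The DMSO and doxorubicin peaks were all 40 bp wide, and the untreated ones measured 40, 80, 80 and 120 bp. A width is not a measure of enrichment here, because the files used here give no score beside it.

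**Figure D4:**
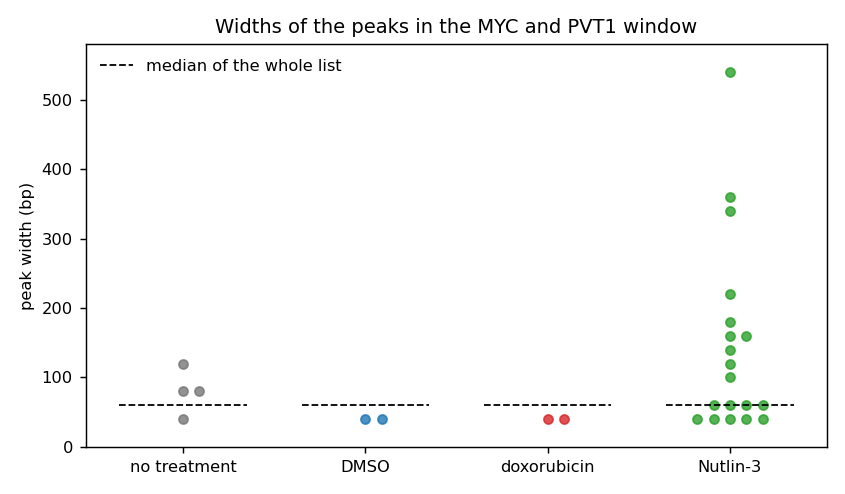
Width in bp of each peak of the window, with 1 point per peak and 1 column per list, and a dashed line at the median of the whole list, 60 bp in each. Nutlin-3 points reach 540 bp, and the DMSO and doxorubicin points are all at 40 bp, below their lists' medians.

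The gaps between the Nutlin-3 peaks were counted only inside the window, so their shortness follows in part from its high density of peaks. The median gap between neighbours in the window was 3.79 kb, against 57.1 kb over the list, and 13 of 18 gaps (72.2%) were at most 20 kb, against 33.6% of all gaps. The longest gap, of 101 kb, was between the last peak inside PVT1 and the peak beyond its end.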

How the data were processed

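Per the labels' protocols, chromatin of U2OS cells was crosslinked and sheared, p53 was pulled down with DO-1, and 4 ChIP and 4 input libraries were made. Only the ChIP libraries' peak lists were used here. The submitters' processing notes name hg18, CASAVA and Bowtie 0.12.2, with no roles. The peak-calling program and threshold were not given in the sources used here. The files deposited by the authors hold 3 columns (chromosome, start, end) with no score, so no depth or enrichment is known, and there was 1 list per library. All widths were multiples of 20 bp. Window and gene bounds came from the definition of the locus. Whether ends belong to the peak is not stated, and they were taken to lie outside.

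Counts, overlaps and distances were computed in Python 3.11.15 with numpy 2.4.6 and scipy 1.17.1, with exact Poisson and Clopper-Pearson 95% intervals that cover counting error only. Tiled windows of 386 kb ran from each chromosome's first base to its last peak. On simulated peaks, window counts and overlaps by at least 1 bp came out as placed in 3 of 3 settings. The other steps were not tested in this way. Every peak of the window is named or counted. Named in full are regions of at least 2 lists, peaks of lists with at most 5, the 5 widest Nutlin-3 peaks and those nearest the gene bounds; other Nutlin-3 peaks named were chosen after their positions were seen, as were the 10 kb windows, the runs and the split of PVT1 at its midpoint. The members and lists were chosen with earlier results of these data known. With 1 library per condition no test and no p-value was made. Sequences are not printed here.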

Additional observations from a re-analysis of the deposited data

Results flagged for a closer look

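The number of peaks in the MYC and PVT1 window was lower than the control's with one treatment and higher with the other. Doxorubicin minus no treatment was -2 (2 peaks against 4), and Nutlin-3 minus DMSO was 17 (19 peaks against 2). The Poisson intervals of the doxorubicin count (0.242 to 7.22) and the untreated count (1.09 to 10.2) overlapped. These counts are too small to set doxorubicin apart from no treatment. With 1 list per condition this difference was not tested, and the lists as a whole grew in both cases, from 496 to 3087 and from 2793 to 18159 peaks.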

How the results depend on the processing

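Of 88 alternatives, 72 stayed within the interval, or within 1.5 times for counts, and 16 moved. Dropping narrow peaks emptied the short lists: DMSO and doxorubicin each fell from 2 peaks to 0 with peaks over 40 bp wide, with the widest 50% and with the widest 496 of each list, because all of their peaks measured 40 bp. The doxorubicin ratio to the flanks was then 0. Nutlin-3 fell from 19 peaks to 10 in the widest 50% and to 3 in the widest 496, with ties in width broken by position. The untreated list has 496 peaks, so the last setting left it whole. Its count of 4 could not move there, yet is among the 72 that stayed. The 3 Nutlin-3 peaks were thus selected by width and the 4 untreated ones were not. The DMSO peaks found with Nutlin-3, 50% in the main count, were 0% by a reciprocal overlap of 50% and 100% by midpoints within 200 bp, within 1000 bp or with adjoining peaks counted. Nutlin-3 peaks found with DMSO were 0% by the reciprocal overlap. Doxorubicin peaks found with DMSO, and with Nutlin-3, were each 100% within 1000 bp. With 2 peaks in a list, 1 peak moves a share by 50 percentage points, and the intervals are so wide that staying inside them says little. The ratio to the flanks stayed above 2 for Nutlin-3 (2.26 to 3.04) and for no treatment (8 to 15), but with 1 window on each side the untreated interval included 1 (0.792 to 394). The DMSO ratio fell from 10 to 3.08 with 10 windows on each side. The 20 flanking windows then held 13 peaks, 7 of them in 1 window, against 2 peaks in 10 windows. Leaving out the untreated list and shifting the tiling were added after the data were seen, and stayed within 1.5 times. Not run were the DMSO ratio with 1 window on each side or with peaks over 40 bp, where the flanks held 0 peaks, and a threshold on strength, since the lists hold none. No paired analysis was possible because each condition had 1 library.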

Other observations

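The end of the long arm of chromosome 8, from the start of the window to the last peak (17.4 Mb), was denser in peaks than the preceding part of the chromosome in every list. Nutlin-3 had 17.7 peaks per Mb there and 6.22 before it. The values were 1.32 and 0.373 without treatment, 1.95 and 0.908 with DMSO, and 1.67 and 0.792 with doxorubicin. The Nutlin-3 density of the MYC and PVT1 window, 49.2 per Mb, was above both. This split was made after the data were seen, and the distal stretch includes the window itself. The 10 windows of 386 kb just before the window held 59 Nutlin-3 peaks, and the 10 just after it held 77. The split thus does not show where along the chromosome the density rises.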
